A study of Mus musculus with 27 samples.

Results

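The adrenergic receptors and the kinases that phosphorylate them were followed as 7 genes of the 57683 features counted in mouse hearts. They were taken by gene symbol: the beta receptors Adrb1 and Adrb3, the alpha1 receptors Adra1a, Adra1b and Adra1d, and the receptor kinases Adrbk1 and Grk5. The 27 hearts sequenced for polyadenylated RNA came from C57BL/6J, an inbred strain, and the labels name no genetic change in any group. Whole hearts came from 7 embryos at E13.5. The unoperated adults, labelled male, gave ventricular apexes, 6 at 6 weeks and 6 at 16 weeks of age. At 12 weeks of age, 4 hearts had been under pressure overload (TAC, constriction of the aorta) for 4 weeks, and 4 came from sham-operated animals labelled male. The TAC group held 3 animals labelled male and 1 labelled female.

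Noradrenaline and adrenaline act on the heart through these receptors. Beta receptors couple to Gs, which raises cyclic AMP and activates protein kinase A, and thereby the rate and force of contraction. Alpha1 receptors couple to Gq and phospholipase C and are known for their part in myocyte growth. Receptor kinases phosphorylate receptors occupied by agonist, after which arrestins bind and signalling is damped.

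Library depth was 7543375 to 12646039 counts at E13.5, 2092270 to 2682955 at 6 weeks, 2164604 to 2642307 at 16 weeks, 10411417 to 11846819 in TAC and 7958592 to 11561952 in sham. The unoperated adults were therefore the shallow libraries, and they alone carry the phred64 quality encoding. Depth and encoding cannot be told apart from group in any comparison with them. Embryonic libraries are of the whole heart and adult libraries of the ventricular apex, so region and stage cannot be told apart either. Counts of Y-linked genes went against the sex label in 8 libraries: 6-week replicates 1 and 6, 16-week replicates 1 and 6, sham replicates 2 and 3, and TAC replicates 3 and F1. All 8 cardiomyocyte markers were detected in every group. Levels are given as CPM, the count of a feature relative to all counts of its library, scaled with TMM factors. Fold changes come from edgeR's quasi-likelihood test and are called at a Benjamini-Hochberg adjusted p under 0.05 over all features tested. They use TMM factors of the compared libraries, and CPM use factors over all 27 libraries. A fold change therefore need not equal the ratio of mean CPM. Grk5 averaged 53.1 CPM in TAC and 21.3 CPM in sham, and its fold change was 2.32.

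Upstream sequence is shown for 3 of the 7 genes, Adrb1, Adra1b and Grk5, which are the members matched in the RefSeq promoter table. Adrb3, Adra1a, Adra1d and Adrbk1 are named only. Presence in that reference alone set the choice of these 3, not the changes of the genes. Adrb1 and Adra1b were among the genes lower at E13.5, and Grk5 changed most in TAC. Each line gives the 250 bases before the RefSeq start site on the gene's strand in GRCm38.p6, with motif matches in capitals. The Adrb1 window is chr19:56721867-56722116 on the plus strand, the Adra1b window chr11:43836490-43836739 on the minus strand and the Grk5 window chr19:60889499-60889748 on the plus strand.
Adrb1: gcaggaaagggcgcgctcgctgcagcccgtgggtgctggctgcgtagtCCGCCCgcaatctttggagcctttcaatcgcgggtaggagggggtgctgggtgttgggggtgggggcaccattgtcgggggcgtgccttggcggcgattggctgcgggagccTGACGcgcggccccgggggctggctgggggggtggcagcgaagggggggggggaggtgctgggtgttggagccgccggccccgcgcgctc
Adra1b: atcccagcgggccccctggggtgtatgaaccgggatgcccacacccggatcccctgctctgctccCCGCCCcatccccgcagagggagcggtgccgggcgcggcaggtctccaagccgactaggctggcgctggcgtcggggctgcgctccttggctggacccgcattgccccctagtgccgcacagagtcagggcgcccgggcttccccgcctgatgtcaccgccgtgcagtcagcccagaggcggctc
Grk5: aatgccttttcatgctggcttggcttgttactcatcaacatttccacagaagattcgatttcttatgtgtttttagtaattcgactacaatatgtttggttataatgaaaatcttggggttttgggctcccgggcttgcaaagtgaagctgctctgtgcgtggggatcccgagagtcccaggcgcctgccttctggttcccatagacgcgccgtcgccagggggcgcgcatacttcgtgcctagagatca

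Both strands were searched for the GC box GGGCGG, the cyclic AMP response element half-site TGACG and the MCAT element CATTCC. The GATA site GATAAG, the E-box CACGTG and the TATA box TATAAA were searched likewise. The Adrb1 window held 1 GC box, beginning at position -202 from the start site, and 1 TGACG at -90. The Adra1b window held 1 GC box at -185. A GC box occurred in 32.7% of 32851 RefSeq windows of the same length and TGACG in 17.8%. No searched motif was found in the Grk5 window. The letters MCAT CATTCC were in 12.6% of all windows, GATAAG in 6.55%, CACGTG in 6.02% and TATAAA in 12.4%. The windows were 74.0% G or C for Adrb1, 72.8% for Adra1b and 49.6% for Grk5. RefSeq gives Adra1b a second start, whose window at chr11:43901238-43901487 was 41.6% G or C and held none of the motifs.

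In the annotation the authors deposited, on build mm9, Adrb1 is a single exon of 1401 bases at chr19:56796862-56798262, of which 1398 are coding, so no UTR is annotated. Adrb3 spans chr8:28336248-28340060, Adra1a chr14:67254088-67352299, Adra1b chr11:43588108-43714712 and Adra1d chr2:131371586-131388021. The kinases both lie on chromosome 19, Adrbk1 at chr19:4286002-4306222 with 22 exons and Grk5 at chr19:60965652-61168449 with 16. Adrb1, Adra1b, Adrbk1 and Grk5 have 100% of their exonic bases outside other features. That share was 81.1% for Adrb3, 82.0% for Adra1a and 51.6% for Adra1d, where opposite-strand noncoding features overlap. The libraries do not record strand, so reads from such a pair cannot be told apart.

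The clearest picture was of pressure overload and of stage. By edgeR's fold change, TAC over sham was 2.32 for the transcript of the kinase Grk5, 1.21 for that of Adrbk1 and 0.484 for that of the receptor Adra1a. At E13.5, Adra1a was close to absent, Adrb1, Adra1b and Adrbk1 were lower than in adults, and Adrb3 was the single member higher than in adults. Between 16 and 6 weeks no member was called.

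**Figure D1:**
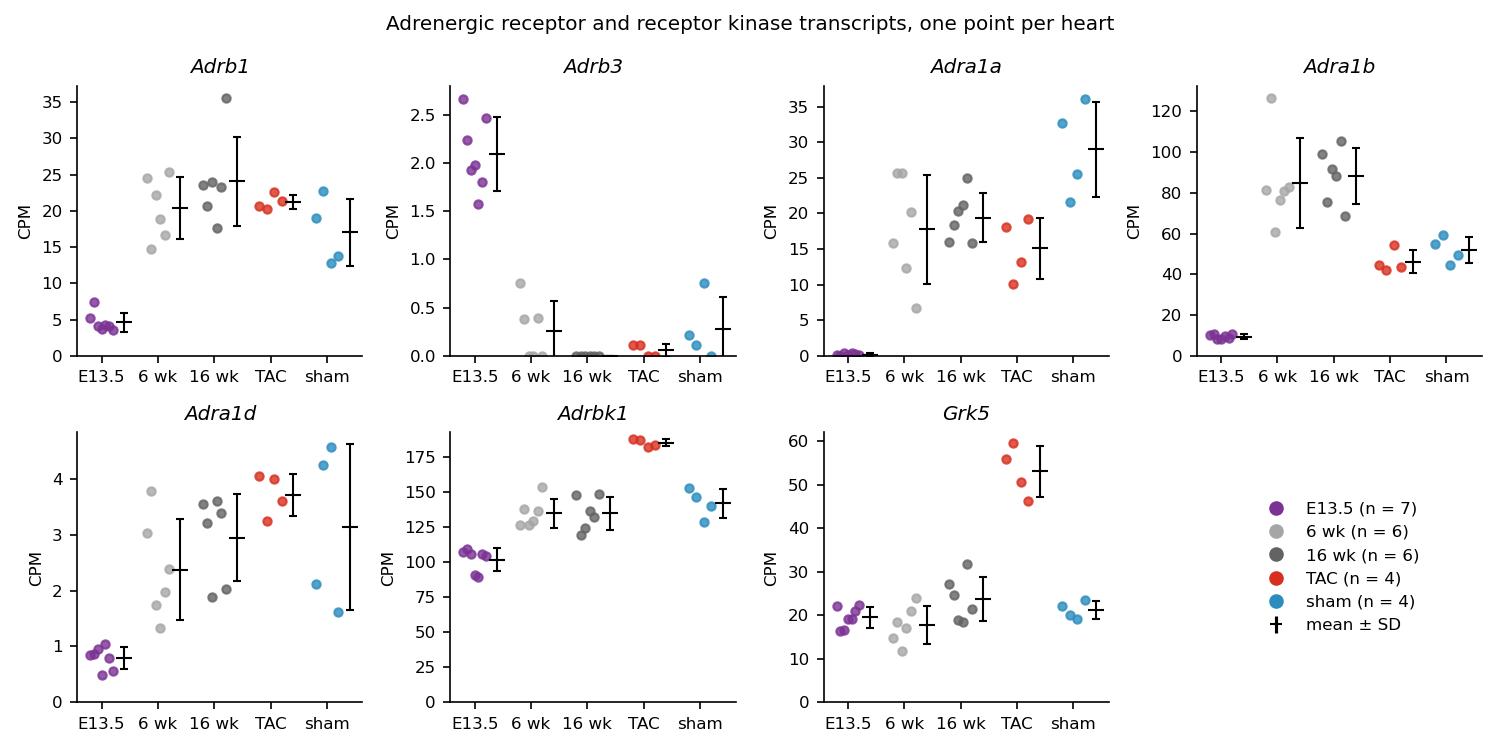
Levels in CPM (y axis, linear and starting at 0, a separate scale for each gene) of the 7 genes, with 1 point for each heart and the mean ± SD of each group beside the points; bars that would pass below 0 end there. Grk5 lay between 46.2 and 59.6 CPM in the 4 TAC hearts, and the other 23 hearts reached at most 31.7 CPM.

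Adrb1 encodes the beta1 receptor, the main beta receptor of the heart muscle cell. At E13.5 its level was 3.60 CPM at the lowest, 4.17 at the median and 7.40 at the highest. The 6-week hearts ran over 14.7, 20.6 and 25.3 CPM and the 16-week hearts over 17.6, 23.4 and 35.6 CPM, as lowest, median and highest. No embryonic heart reached the lowest adult heart. Against the unoperated adults Adrb1 fell by 2.41 ± 0.15 on the log2 scale (SE, edgeR quasi-likelihood, adjusted p = 5.77e-15), and against sham by 2.07 ± 0.19 (adjusted p = 1.24e-08). A bulk library cannot tell fewer cells expressing a gene from less RNA per cell, here and throughout.

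For Adrb1 the TAC hearts had 20.7, 20.3, 22.6 and 21.3 CPM, against 19.0, 22.7, 12.8 and 13.8 CPM in sham hearts. The TAC hearts lay close together inside the upper range of the sham hearts, whose spread was wider. The means were 21.2 ± 1.02 CPM in TAC and 17.1 ± 4.64 CPM in sham (SD, n = 4 each). The difference was 0.21 ± 0.15 on the log2 scale and was not called by edgeR (adjusted p = 0.294). Without sham replicate 2, the highest sham heart, it was 0.37 with an adjusted p of 0.0364 and was called. From the highest mean down, the groups stood at 24.1 ± 6.13 CPM at 16 weeks, 21.2 in TAC, 20.4 ± 4.32 at 6 weeks, 17.1 in sham and 4.63 ± 1.33 at E13.5. The ranges of neighbouring adult groups overlapped throughout.

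Adrb3 encodes the beta3 receptor, best known from fat cells. It was counted 44, 26, 24, 20, 18, 25 and 35 times in E13.5 replicates 1 to 7, and 2, 1, 5 and 0 times in sham replicates 1 to 4. The TAC hearts held 1, 1, 0 and 0 counts, and the 6-week hearts 2, 1, 0, 0, 1 and 0. No count was found in any 16-week heart, which over that group allows a level of up to 0.221 CPM. Every embryonic heart had more counts than any adult heart, and the adult levels rest on a handful of reads.

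Scaled to depth, Adrb3 averaged 2.09 ± 0.382 CPM at E13.5 and 0.274 ± 0.337 CPM in sham (SD, n = 7 and n = 4). It rose by 2.91 ± 0.45 on the log2 scale over sham (edgeR, adjusted p = 7.29e-06). It passed the filter on low counts there through the E13.5 hearts alone, as no sham heart had more than 5 counts. Sham replicate 3 holds 5 of the 8 sham counts. The change was 3.96 without it and 2.43 without sham replicate 4, which holds none, and it was called with any heart left out. In the comparison with unoperated adults the filter on low counts removed Adrb3. There the pooled rate at E13.5 (192 counts) was 14.9 times that of the unoperated adults (4 counts), with a 95% Poisson interval of 5.74 to 55.4 that covers counting error only. TAC gave 2 counts and sham 8, a ratio of 0.244 with an interval of 0.0253 to 1.22, so no difference was detectable at this depth.

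The 7 adipocyte markers were also summed in each heart. Their sum was 0 to 0.593 CPM at E13.5, where Lep was at 0, against 3.44 to 14.3 CPM in sham, where Ucp1 was at 0. The 16-week hearts, with no Adrb3 count, had sums of 0 to 1.78 CPM, with Adipoq, Cidec, Lep and Ucp1 at 0. The part of fat cells in the Adrb3 result was not tested. Among sham hearts, replicate 3 had the most Adrb3 counts and the highest adipocyte sum, 14.3 CPM. The 6-week heart with the highest sum, replicate 2 at 18.1 CPM, had 1 Adrb3 count.

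Adra1a encodes the alpha1A receptor, one of the alpha1 subtypes of heart muscle. Its counts at E13.5 were 1, 0, 5, 1, 5, 3 and 2 in the 7 hearts. The level there was 0.194 ± 0.168 CPM (SD, n = 7), against 17.7 ± 7.59 CPM at 6 weeks and 19.4 ± 3.47 CPM at 16 weeks (n = 6 each). Relative to the unoperated adults it fell by 6.64 ± 0.31 on the log2 scale, 99.6-fold (edgeR, adjusted p = 6.15e-17), and relative to sham its change was -7.37 ± 0.28 (adjusted p = 4.87e-14). Against sham, where all 7 genes were tested, this was the largest change. The summed level of the 8 cardiomyocyte markers was also lower at E13.5, 24647 to 33284 CPM against 155453 to 181957 CPM in sham, with none at 0. The 8 erythroid markers summed to 14406 to 53181 CPM at E13.5 against 188 to 339 CPM in sham, where Hbb-y and Hba-x were at 0. The part of either in the receptor results was not tested.

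TAC hearts had 18.1, 10.04, 13.2 and 19.2 CPM of Adra1a, against 32.7, 21.6, 25.6 and 36.1 CPM in sham hearts. Every TAC heart was below every sham heart. The level fell by 1.05 ± 0.22 on the log2 scale (edgeR, adjusted p = 0.00512), and the change stayed between -1.17 and -0.88 and remained called when each heart was left out in turn. Without the 4 TAC and sham libraries that went against their sex label it was -1.40 (adjusted p = 0.00159). That fit kept only TAC replicates 1 and 2 and sham replicates 1 and 4, the sham hearts with the most Adra1a. By mean, the order was sham 29.0 ± 6.62 CPM, 16 weeks, 6 weeks, TAC 15.1 ± 4.28 CPM and E13.5. TAC overlapped both unoperated groups, which are shallower and were not tested against it.

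Beside Adra1a lies a noncoding feature with nearly the same profile. The annotation lists n289091, a NONCODE transcript on the same strand at chr14:67355495-67358904, 3196 bases downstream of the last Adra1a base and sharing none of its exonic bases. The TAC hearts held 17.7, 11.6, 13.0 and 17.7 CPM of n289091, and the sham hearts 35.5, 22.1, 22.1 and 35.4 CPM. The same pair of sham hearts, replicates 1 and 4, was highest for both, and each TAC heart was below each sham heart for both. It fell by 1.05 ± 0.20 on the log2 scale in TAC (edgeR, adjusted p = 0.00248). At E13.5 it had 7 counts in all, or 0.0852 ± 0.0716 CPM, and fell by 8.53 ± 0.29 against sham (adjusted p = 1.46e-15). It passed the filter on low counts there through the sham hearts alone. Over the 27 libraries, whose groups differ in stage and depth, Pearson's r of log2(CPM + 1) between the pair was 0.992. Whether n289091 is a separate RNA or an extension of the Adra1a transcript was not tested.

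**Figure D2:**
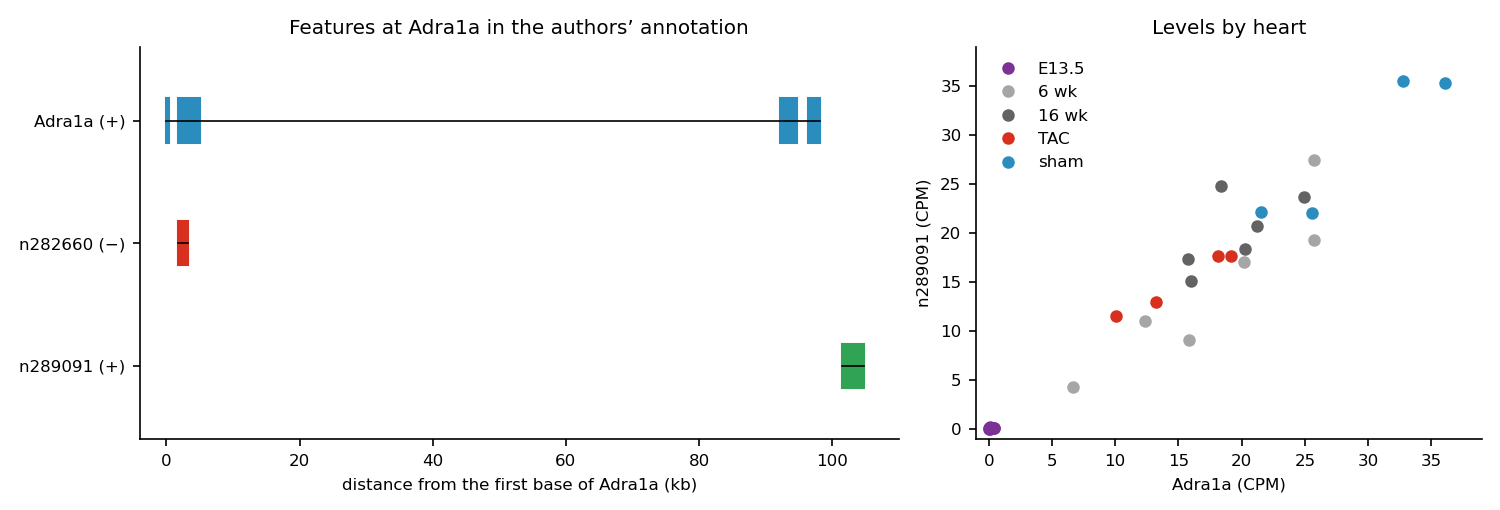
Left, the exonic blocks of Adra1a and of 2 noncoding features along the distance from the first Adra1a base (kb), with the strand in brackets; right, n289091 against Adra1a in CPM, 1 point for each of 27 hearts. The E13.5 hearts sit at the origin, and TAC hearts lie at 10.04 to 19.2 CPM of Adra1a, below the sham hearts at 21.6 to 36.1 CPM.

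A second feature at Adra1a, n282660, lies on the opposite strand and covers 1469 of the gene's 8144 exonic bases, including 872 of its 1410 coding bases. It held 1 count in TAC, 1 in sham and none elsewhere. Only 4 of the 1473 exonic bases of n282660 lie outside other features, so these counts say little about its level. How reads on shared bases were assigned is not given in the sources used here. Of the NONCODE features inside or within 10000 bases of the 7 genes, 16 in all, 7 reached a mean of 0.5 CPM in any group. At Adrb1, n282426 begins 654 bases downstream on the same strand and fell by 2.29 ± 0.34 at E13.5 against sham (edgeR, adjusted p = 5.49e-06), beside the 2.07 of Adrb1 itself. At Adrb3, the opposite-strand n276893 shares 546 exonic bases with the gene and rose by 4.46 ± 0.66 in the same comparison (adjusted p = 4.02e-06). It held 87 counts at E13.5 and 1 in sham. Like Adrb3 it passed the filter on low counts through the E13.5 hearts alone, so it is no separate support for the gene. Inside a Grk5 intron, n289801 rose by 1.07 ± 0.30 at E13.5 against sham (adjusted p = 0.00288), where Grk5 itself was slightly lower. With at most 1.01 CPM in a sham heart, n289801 also passed the filter through the E13.5 hearts alone.

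Adra1b encodes the alpha1B receptor. Its E13.5 hearts had 8.21, 9.97 and 10.7 CPM as lowest, median and highest, against 60.6, 81.2 and 127 CPM at 6 weeks and 68.8, 90.2 and 106 CPM at 16 weeks. The embryonic and adult ranges were far apart. Adra1b fell by 3.34 ± 0.12 on the log2 scale against the unoperated adults (edgeR, adjusted p = 3.29e-19) and by 2.64 ± 0.10 against sham (adjusted p = 1.54e-15). Both unoperated groups also lay wholly above the sham hearts, a difference that cannot be told apart from library depth and quality encoding.

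For Adra1b the TAC hearts had 44.8, 42.2, 54.3 and 43.7 CPM, against 54.9, 59.4, 44.4 and 49.8 CPM in sham hearts. The groups overlapped, with TAC replicate 3 among the sham values and sham replicate 3 among the TAC values. Adra1b fell by 0.27 ± 0.10 on the log2 scale (edgeR, adjusted p = 0.0386). This call did not hold in 6 of the 8 fits that each left out 1 heart (every one except those without sham replicate 3 or TAC replicate 3), nor with DESeq2 (adjusted p = 0.0514).

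Adra1d encodes the alpha1D receptor, better known from vascular smooth muscle. Its E13.5 hearts had 0.495, 0.847 and 1.05 CPM as lowest, median and highest, below every adult heart. It fell by 2.11 ± 0.30 on the log2 scale against sham (edgeR, adjusted p = 2.09e-06). Against the unoperated adults it did not pass the filter, with means of 0.796 ± 0.201 CPM at E13.5, 2.37 ± 0.900 at 6 weeks and 2.94 ± 0.780 at 16 weeks. In the 5 alternative fits that kept it the change was -2.05 to -1.69 and was called.

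TAC hearts had 4.04, 3.24, 3.99 and 3.59 CPM of Adra1d, against 2.11, 4.24, 4.57 and 1.62 CPM in sham hearts. The TAC hearts lay together, between a low and a high pair of sham hearts. The difference of 0.18 ± 0.29 on the log2 scale was not called (edgeR, adjusted p = 0.643). The high sham pair, replicates 2 and 3, are libraries that went against their sex label. Without these and the TAC libraries of that kind the difference was 0.86 (adjusted p = 0.0483). That fit kept only TAC replicates 1 and 2 and the low sham pair, replicates 1 and 4, so the high sham hearts were removed by the selection. Smooth muscle markers summed to 945 to 1241 CPM in TAC and 1074 to 1126 CPM in sham, with none of the 7 at 0. The opposite-strand feature n286471, which shares 920 of the 1901 exonic bases of Adra1d, rose by 1.27 ± 0.33 in TAC (adjusted p = 0.00716), at 1.91 ± 0.365 CPM in TAC and 0.727 ± 0.300 CPM in sham. Its counts were 19, 13, 20 and 15 in TAC and 4, 10, 4 and 7 in sham. The feature thus passed the filter on low counts through the TAC hearts, where it was high.

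Compared per exonic kilobase, Adra1b was the most abundant alpha1 transcript in every group. Of the summed alpha1 level per kilobase it made up 86.4 ± 3.48% at E13.5, 87.8 ± 3.77% at 6 weeks, 86.9 ± 1.52% at 16 weeks, 78.2 ± 3.35% in TAC and 74.5 ± 3.39% in sham (SD). The share of Adra1a was 0.744 ± 0.632% at E13.5, 10.6 ± 2.97% in TAC and 17.4 ± 4.33% in sham. TAC hearts ranged over 8.004 to 13.7% and sham hearts over 11.8 to 22.2%, so these shares overlapped. The shares depend on the length used: with exonic bases outside other features alone, Adra1b was 77.1% at E13.5, and Adra1d 22.1% in place of 12.8%. Per kilobase, Adrb1 was 1.01 ± 0.227 times the alpha1 sum at E13.5, 0.870 ± 0.0554 times in TAC and 0.584 ± 0.114 times in sham. Its ratios were 0.816 to 0.941 in TAC and 0.488 to 0.722 in sham, without overlap. No test was run on these ratios.

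Adrbk1 encodes GRK2, the widely expressed kinase that is recruited to active receptors by G protein beta-gamma subunits. It was the most abundant of the 7 transcripts per exonic kilobase in every group, at 29.5 ± 2.37 CPM per kilobase at E13.5, 53.6 ± 0.729 in TAC and 41.1 ± 3.002 in sham. In CPM, TAC hearts had 187, 187, 182 and 183, against 152, 147, 128 and 140 in sham hearts. All TAC hearts were above all sham hearts, and they lay within a narrow band. Adrbk1 rose by 0.28 ± 0.06 on the log2 scale (edgeR, adjusted p = 0.00295), and this call held with each heart left out, at 0.24 to 0.31.

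At E13.5 Adrbk1 had 89.3, 105 and 109 CPM as lowest, median and highest, against 126, 133 and 153 CPM at 6 weeks and 119, 134 and 148 CPM at 16 weeks. Each embryonic heart was below each adult heart. The gene fell by 0.57 ± 0.06 on the log2 scale against the unoperated adults (edgeR, adjusted p = 4.29e-10) and by 0.67 ± 0.07 against sham (adjusted p = 2.33e-08). By mean the order was TAC, sham, 6 weeks, 16 weeks and E13.5, and the sham, 6-week and 16-week ranges overlapped.

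Grk5 encodes a receptor kinase that sits at the plasma membrane and, in the mouse heart, can also act in the nucleus. TAC hearts had 56.0, 59.6, 50.6 and 46.2 CPM of Grk5, against 22.2, 20.1, 19.2 and 23.6 CPM in sham hearts. Each TAC heart was above every other heart of the series, whose highest was a 16-week heart at 31.7 CPM. Grk5 rose by 1.21 ± 0.10 on the log2 scale (edgeR, adjusted p = 2.58e-07). With each heart left out in turn the change was 1.17 to 1.28, and it was called each time.

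Levels of Grk5 in the other groups were close together. At E13.5 the lowest, median and highest hearts had 16.3, 19.1 and 22.4 CPM, at 6 weeks 11.8, 17.8 and 23.9 CPM, and at 16 weeks 18.5, 23.1 and 31.7 CPM. These ranges overlapped each other and that of sham. The E13.5 level was -0.23 ± 0.11 on the log2 scale relative to unoperated adults and was not called (edgeR, adjusted p = 0.0545). Relative to sham it fell by 0.31 ± 0.10 (adjusted p = 0.00823), a call that was absent with upper-quartile scaling, where the change was -0.15 (adjusted p = 0.167). Between 16 and 6 weeks it was 0.40 ± 0.17 with an unadjusted p of 0.0292 and an adjusted p of 0.235.

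Set against each other per exonic kilobase, Grk5 was 0.313 ± 0.0315 of the Adrbk1 level in TAC and 0.164 ± 0.0146 in sham (SD, n = 4 each). The TAC ratios were 0.275 to 0.349 and the sham ratios 0.150 to 0.184. At E13.5 the ratio was 0.211 ± 0.0302, at 6 weeks 0.143 ± 0.0257 and at 16 weeks 0.193 ± 0.0445. All 4 TAC hearts lay above every other heart in this ratio too, which shares its Grk5 values with the comparison above.

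**Figure D3:**
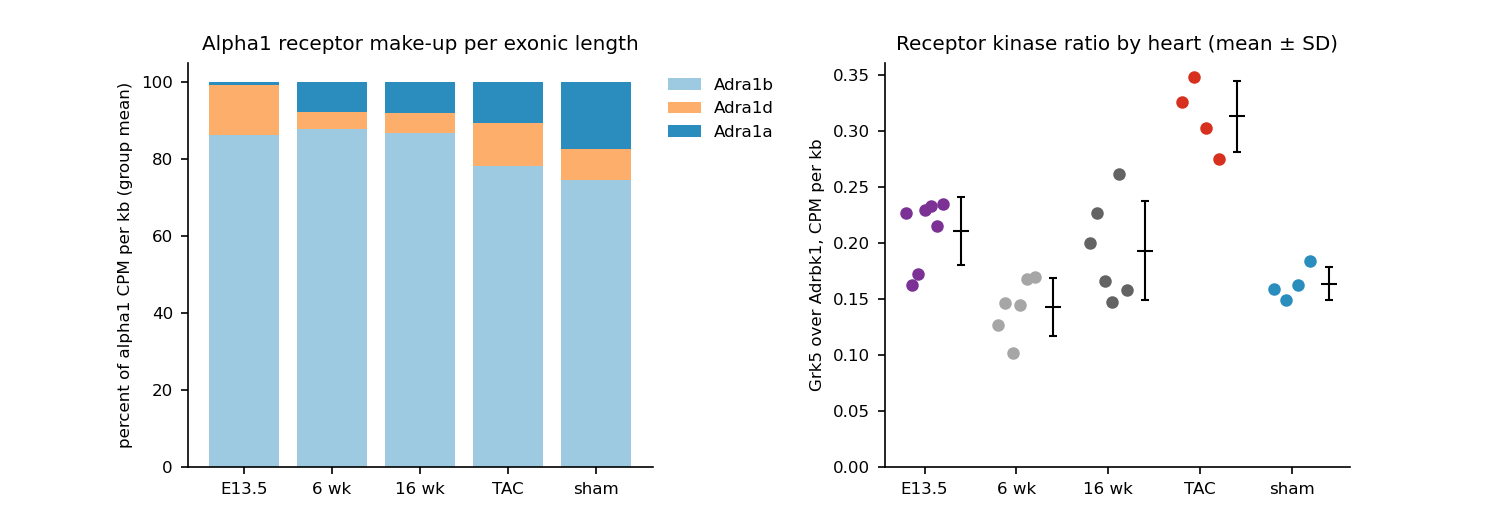
Left, stacked bars of the group mean share (%) of each alpha1 receptor in their summed CPM per exonic kilobase; right, Grk5 over Adrbk1, both in CPM per exonic kilobase, for each heart with the mean ± SD of its group. Adra1a made up 10.6% in TAC and 17.4% in sham, and the kinase ratio was 0.275 to 0.349 in TAC and 0.150 to 0.184 in sham.

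Cell markers moved in TAC beside these genes. The 7 fibroblast markers summed to 1694 to 2825 CPM in TAC and 931 to 995 CPM in sham, and the 6 macrophage markers to 477 to 705 CPM in TAC and 337 to 369 CPM in sham. The 8 cardiomyocyte markers summed to 143772 to 172804 CPM in TAC and 155453 to 181957 CPM in sham, and the 7 endothelial markers to 1753 to 2170 CPM in TAC and 1666 to 1755 CPM in sham. None of these markers was at 0 in either group. The 4 genes listed as atrial markers, Myl7, Myl4, Nppa and Sln, summed to 2582 to 4019 CPM in TAC and 209 to 242 CPM in sham. Sln had no count in any of the 27 libraries. Fibroblast markers were called higher in 4 of 7 cases and macrophage markers in 2 of 6, with none lower. Of the 8 cardiomyocyte markers 2 were called higher and 3 lower, and of 6 endothelial markers tested 1 was called higher and 0 lower. Over all features tested 38.0% were called, 19.6% higher and 18.4% lower. The part of these markers in the Grk5 and Adra1a results was not tested.

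Counted together, 4 of the 6 members tested were called in TAC against sham, 2 higher and 2 lower, where 38.0% of all 14555 features tested were called, 19.6% higher and 18.4% lower. The groups did not overlap for 3 of the 6, against 37.1% of all features. In E13.5 against sham all 7 passed the filter on low counts and all 7 were called, 1 higher and 6 lower, where 76.3% of 18677 features were called (40.7% higher, 35.6% lower) and 64.4% did not overlap. The ranges of 6 of the 7 did not overlap, all but Grk5. Adrb3 passed the filter there through the E13.5 hearts alone, and Adra1a passed in both E13.5 comparisons through the adult hearts alone. E13.5 against the unoperated adults had 4 of 5 tested members called, all lower, where 83.8% of 12766 features were called, 39.7% lower and 44.1% higher. The ranges did not overlap for these 4, against 55.7% of all features. With so many features called, these shares say little about the receptors as a group. The age comparison called none of 5 tested members by edgeR, where 2.51% of 10394 features were called, 1.32% higher and 1.19% lower, and 2.10% did not overlap. At an unadjusted p under 0.05 it gave 1, Grk5, and DESeq2 called none. E13.5 and TAC were both set against the same 4 sham hearts, and their values stand side by side for that reason alone.

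**Figure D4:**
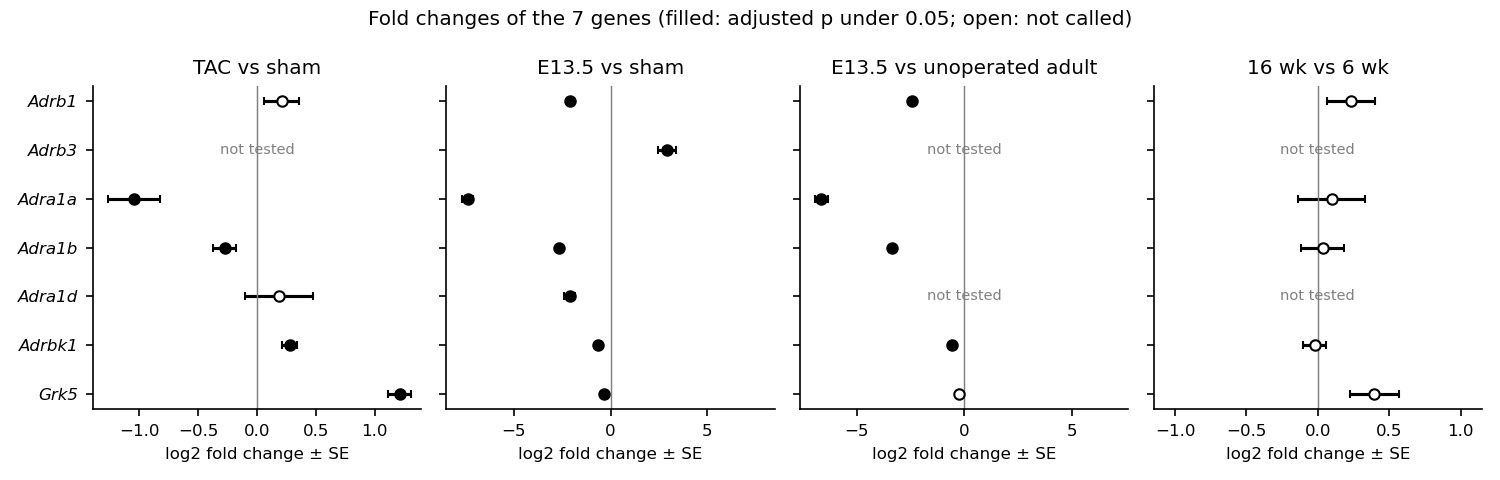
Log2 fold change ± SE (x axis, a separate scale in each panel) of the 7 genes in 4 comparisons, the first-named group over the second, with filled points for adjusted p under 0.05. In TAC against sham Grk5 stands at 1.21 and Adra1a at -1.05; in E13.5 against sham Adrb3 is the single point right of 0.

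The age comparison left the other members close to 0. At 16 weeks against 6 weeks the log2 fold change was 0.23 ± 0.17 for Adrb1, 0.10 ± 0.24 for Adra1a, 0.03 ± 0.15 for Adra1b and -0.02 ± 0.08 for Adrbk1 (edgeR, adjusted p = 0.517 to 0.947). Every one of these ranges overlapped between the ages. The libraries are shallow, and Adrb3 and Adra1d did not pass the filter.

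Among genes downstream of and around the receptors, 107 in 8 lists, 95 were tested in TAC against sham: 21 were higher, 25 lower and 49 not called. That is 48.4% called, beside 38.0% of all features, with a median change of -0.00. In E13.5 against sham 31 of 100 were higher and 56 lower, 87.0% called, beside 76.3% of all features. Against the unoperated adults 33 of 93 were higher and 54 lower, 93.5% called, beside 83.8% of all features. The medians were -0.50 and -0.51 on the log2 scale, where the medians of all features were 0.12 and 0.07. Between the ages 1 of 82 was higher and 2 lower. The genes named below are taken from up to 4 called genes of each list and comparison with the largest changes, and not all of these are given. Some of them overlap other features, so the limit given for Adrb3, Adra1a and Adra1d applies to them too. The lowest shares of exonic bases outside other features were 56.9% for Pkia, 58.2% for Gnai1 and 59.5% for Prkca. Gnao1 had 61.9%, Prkce 67.5% and Kcnj3 68.9%.

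**Figure D5:**
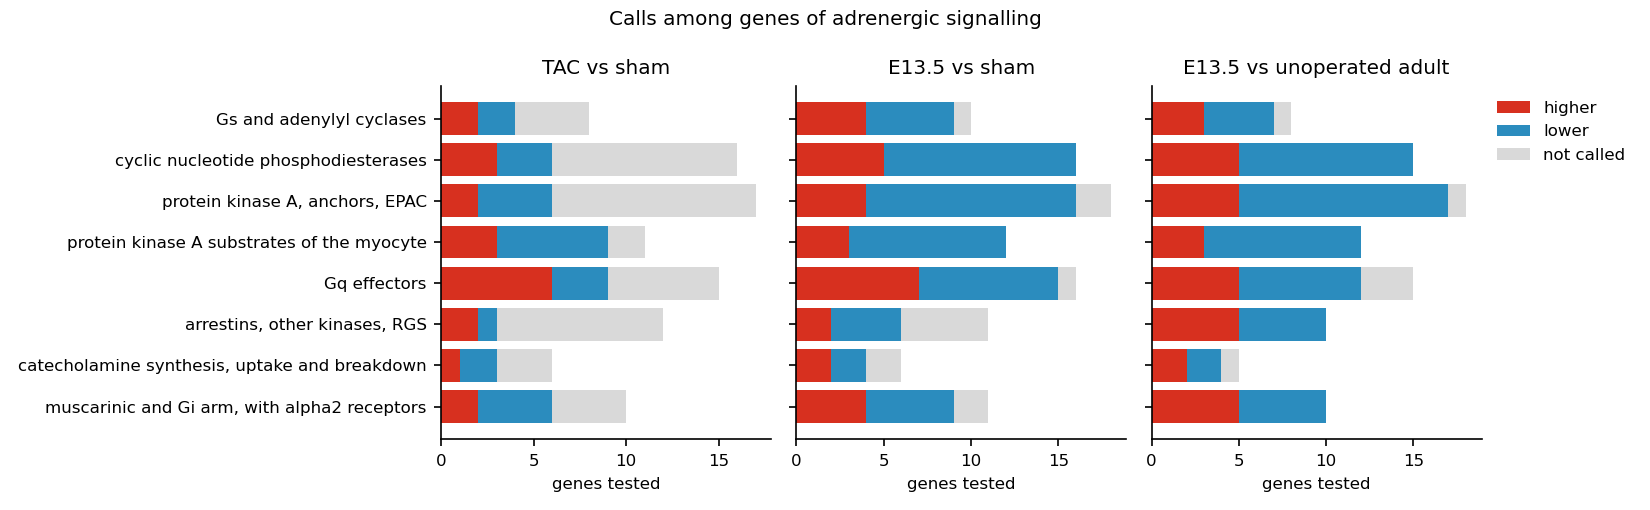
Genes tested (x axis) in 8 lists of adrenergic signalling genes, split into those called higher, called lower and not called, for 3 comparisons. Of the 11 protein kinase A substrates tested in TAC against sham, 3 were higher and 6 lower; at E13.5 against sham 9 of 12 were lower.

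The cyclases that make cyclic AMP changed in both directions in TAC. Of 8 tested Gs and cyclase genes 2 rose and 2 fell. Adcy7 averaged 73.9 CPM in TAC and 31.8 CPM in sham, a rise of 1.11 ± 0.10 (adjusted p = 7.25e-07). Adcy6, with Adcy5 a main cyclase of the heart muscle cell, averaged 645 CPM in TAC and 859 CPM in sham and fell by 0.52 ± 0.06 (adjusted p = 1.71e-05). At E13.5 Adcy9 fell by 3.51 ± 0.09 against sham (adjusted p = 2.73e-18), at 7.52 CPM in the embryo and 75.8 CPM in sham, and Adcy1 rose by 2.94 ± 0.15 (adjusted p = 6.30e-13).

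Phosphodiesterases break cyclic nucleotides down. In TAC 3 of 16 rose and 3 fell, among them Pde9a, up by 1.04 ± 0.17, Pde1b, up by 0.86 ± 0.21, Pde7a, down by 0.72 ± 0.11, and Pde4d, which acts near the beta receptors, down by 0.64 ± 0.09. At E13.5 against sham 5 of 16 rose and 11 fell, led by Pde1c at -3.93 ± 0.13 and Pde4c at -3.74 ± 0.15. All named changes passed edgeR's adjusted p of 0.05.

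Protein kinase A subunits, anchors and the cyclic AMP exchange factors had 2 of 17 higher and 4 lower in TAC. Prkar1a, a regulatory subunit, averaged 1011 CPM in TAC and 584 CPM in sham and rose by 0.69 ± 0.07 (edgeR, adjusted p = 2.73e-06). It was also the 1 gene of these lists higher at 16 than at 6 weeks, by 0.38 ± 0.08 (adjusted p = 0.0162). Pkia, an inhibitor of the kinase, fell by 0.81 ± 0.12 in TAC (adjusted p = 0.000196). At E13.5 against sham 4 of 18 rose and 12 fell, with the exchange factor Rapgef4 at -3.63 ± 0.13, the regulatory subunit Prkar2b at 3.52 ± 0.24 and the anchor Akap6 at -2.29 ± 0.07. Prkar2b averaged 9.71 CPM at E13.5 and 0.735 CPM in sham. It passed the filter on low counts through the E13.5 hearts, where it was high.

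Among the kinase's substrates in the myocyte, Pln, the brake on the calcium pump, fell by 0.90 ± 0.11 in TAC (edgeR, adjusted p = 6.99e-05), at 381 CPM in TAC and 664 CPM in sham. Ryr2, the calcium release channel, fell by 0.62 ± 0.07 (adjusted p = 1.37e-05), and Mybpc3, a thick filament protein, rose by 0.52 ± 0.07 (adjusted p = 2.33e-05). Ryr2, Mybpc3 and Tnni3 of this list are also counted among the cardiomyocyte markers. At E13.5 against sham Hspb6, a small heat shock protein, fell by 5.54 ± 0.13 (adjusted p = 5.48e-15). Ppp1r1a, an inhibitor of protein phosphatase 1, rose by 5.24 ± 0.18 (adjusted p = 9.00e-16), at 35.8 CPM in the embryo and 0.867 CPM in sham. At that sham level Ppp1r1a passed the filter on low counts through the E13.5 hearts, where it was high.

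On the Gq side, where alpha1 receptors signal, 6 of 15 genes rose and 3 fell in TAC. The protein kinase C genes Prkcb, Prkca and Prkcd rose by 1.10 ± 0.30, 0.67 ± 0.09 and 0.53 ± 0.10, and Prkce fell by 0.42 ± 0.14 (edgeR, adjusted p = 0.0399). At E13.5 against sham 7 of 16 rose and 8 fell, with Prkcb at 1.69 ± 0.21 and the phospholipase Plcb4 at -1.55 ± 0.09. Plcb4 was also lower at 16 than at 6 weeks, with a change of -0.43 ± 0.10 (adjusted p = 0.0184).

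Arrestins, other receptor kinases and RGS proteins, which damp signalling, had 2 of 12 higher and 1 lower in TAC. Arrb2, an arrestin, rose by 0.64 ± 0.10 (edgeR, adjusted p = 0.000125), at 45.0 CPM in TAC and 26.9 CPM in sham. Rgs5 fell by 0.43 ± 0.10 (adjusted p = 0.00409). At E13.5 against sham 2 of 11 rose and 4 fell, with Rgs5, also known as a pericyte marker, at -4.29 ± 0.29.

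Of the genes that make, take up or break down catecholamines, 6 were tested in TAC. Pnmt, which makes adrenaline, rose by 1.28 ± 0.34 (edgeR, adjusted p = 0.00792), and Dbh, which makes noradrenaline, fell by 0.99 ± 0.31 (adjusted p = 0.0188). Both are low, Pnmt at 3.30 CPM in TAC and 1.27 CPM in sham, and Dbh at 1.59 CPM in TAC and 2.96 CPM in sham. Dbh was lower at 16 than at 6 weeks too, with a change of -1.11 ± 0.24 (adjusted p = 0.0162). The oxidase Maob fell by 0.62 ± 0.20 in TAC (adjusted p = 0.0341) and changed by -3.32 ± 0.10 at E13.5 against sham. The other oxidase, Maoa, rose by 2.16 ± 0.21 in that comparison (adjusted p = 1.54e-08), as did Ddc, which makes dopamine, by 3.09 ± 0.16 (adjusted p = 4.34e-13).

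The muscarinic and Gi arm opposes Gs. There 2 of 10 genes rose and 4 fell in TAC. Kcnj3, a potassium channel opened through Gi-coupled receptors, averaged 21.2 CPM in TAC and 43.1 CPM in sham and fell by 1.13 ± 0.12 (edgeR, adjusted p = 5.02e-06). The adenosine receptor Adora1 fell by 0.77 ± 0.12 and the muscarinic receptor Chrm2 by 0.69 ± 0.10, and Gnao1 rose by 0.91 ± 0.13. At E13.5 against sham Chrm2 fell by 2.73 ± 0.11, Kcnj3 fell by 1.87 ± 0.18, and the Gi subunits Gnai1 and Gnai3 rose by 1.91 ± 0.16 and 1.45 ± 0.11.

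Across the 27 hearts the members did not share 1 profile. Pearson's r of log2(CPM + 1) was 0.915 between Adra1a and Adra1b, 0.913 between Adrb1 and Adra1b, and -0.917 between Adrb1 and Adrb3. Grk5 stood apart, with r of 0.698 to Adrbk1 and at most 0.443 to any receptor. These values describe hearts from groups that differ in stage, region and depth, and the difference between E13.5 and adult hearts enters each of them. Among 12223 coding genes, those with the most similar profile were Adcy5 for Adrb1 (r = 0.966), Dhx9 for Adrb3 (0.954), Dcaf6 for Adra1a (0.986) and Cpn2 for Adra1b (0.986). They were Gbp5 for Adra1d (0.908), Il4ra for Adrbk1 (0.961) and Rrp12 for Grk5 (0.897), each over 27 libraries.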

How the data were processed

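Polyadenylated RNA of 27 hearts was sequenced as single-end reads without strand information, per the labels' protocols. The authors deposited raw counts per feature, 1 file per sample and 1 table of the series; the values were equal in all 27 files. The submitters' processing notes name Bowtie, TopHat 1.3.0, HTSeq, DESeq and edgeR without their roles, and the build mm9 (NCBIM37). The counting mode is not given in the sources used here. The line of totals entered neither library sizes nor tests. Embryos were grouped by title, all E13.5, while the age field of their labels rises from sample to sample.

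Statistics used R 4.3.3, edgeR 4.0.16 and limma 3.58.1, with DESeq2 1.42.0 as an alternative, and figures Python 3.11.15 and matplotlib 3.10.9. In each comparison features passed edgeR's filter (minimum count 10, minimum total 15), were scaled by TMM and tested by the quasi-likelihood test with robust dispersions. Adjusted p under 0.05 was called. Each SE is the size of the log2 fold change divided by the root of its F statistic. CPM use TMM factors over all 27 libraries, and correlations log2(CPM + 1). Depth was 2092270 to 12646039 counts per library, and p-values measure the spread between hearts. The test was also run on simulated data. Members and lists were chosen with earlier results of these data known. Named genes are the members, up to 4 called genes per pathway list with the largest change and a mean of at least 1 CPM, nearby NONCODE features, and the 3 most similar coding genes of each member, of which 1 is given here. Upstream windows are from RefSeq (GRCm38.p6). Alternatives were other scalings, filters, fits and adult groups, a replicate block, thinning, and leaving out libraries.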

Additional observations from a re-analysis of the deposited data

Results flagged for a closer look

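In 3 of the 34 groups of member values examined, 1 heart lay far from the others of its group, measured as its gap to the nearest heart over the range of the group. Chance alone gives about 1 in 20. Adrb1 was 7.40 CPM in E13.5 replicate 2, where the next heart had 5.20 CPM, still below every adult heart. Adrb1 was 35.6 CPM in 16-week replicate 6, where the next heart had 24.1 CPM; this library also went against its sex label. Adra1b was 127 CPM in 6-week replicate 2, where the next heart had 82.6 CPM; this library had the highest adipocyte marker sum of the 6-week group, 18.1 CPM. The part of these properties was not tested.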

How the results depend on the processing

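Directions and calls of Adrb1, Adra1a, Adra1b and Adrbk1 in both E13.5 comparisons, of Adrb3 and Adra1d in E13.5 against sham, and of Grk5, Adrbk1 and Adra1a in TAC held under all alternatives. Against unoperated adults, 1 member (Adrb3) in place of 0 was called higher with no filter, with a filter of 1 CPM in all libraries of a group, with all 27 libraries in 1 fit, and against 6 or 16 weeks alone. Adra1d was called lower in these same 5 fits. In TAC, 1 member in place of 2 was called lower with DESeq2, no filter, all 27 libraries or the replicate block, as Adra1b lost its call (adjusted p = 0.0514, 0.0642, 0.222 and 0.190). Leaving out 1 heart gave 1 to 2 lower and 2 to 3 higher calls in TAC, and 4 to 5 lower calls against unoperated adults, where Grk5 was called in 5 of 19 fits. It was also called there with the 1 CPM filter, all 27 libraries, the replicate block or 16 weeks alone, and lost its call against sham with no filter (adjusted p = 0.0575) or all 27 libraries (0.0882). The direction turned, with no call, for Adra1d in TAC under the replicate block (-0.022) and with a heart left out (-0.050 to 0.41), and in the age comparison with a heart left out for Adra1a (-0.054 to 0.24), Adra1b (-0.057 to 0.19) and Adrbk1 (-0.053 to 0.024). Same-numbered hearts of the compared groups had correlations of -0.119 to 0.182. Hearts with different numbers were not compared, so whether replicate numbers pair the samples was not tested. Over all features the block gave 3675 calls in place of 5528 in TAC. Without a filter 18408 in place of 10695 were called against unoperated adults. The age comparison called 261, against 508 with no filter, 420 with all 27 libraries and 138 without the libraries against their sex label. Upper-quartile scaling moved the median of all features by 0.12 against unoperated adults and 0.17 against sham at E13.5. The causes were not tested. The depth of the unoperated adults limits Adrb3 and Adra1d.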
